A study of Mus musculus with 12 samples.

Results

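The mouse mitochondrial genome encodes 37 of the 54532 genes in the deposited expression table: 13 protein genes, 2 rRNAs and 22 tRNAs. They were taken by their chromosome alone, with no use of their level, and all 37 were followed in all 12 libraries. The libraries come from limb buds of mouse embryos at stage E12.5 and form 4 groups of 3: cKO polysome, cHet polysome, cKO input and cHet input. By the labels, cKO limb buds carry Mettl14 flox/flox and are called a Mettl14 knockout, and cHet limb buds carry Mettl14 wt/flox and serve as the heterozygous control, so every library holds at least 1 floxed Mettl14 allele. Mettl14 encodes a subunit of the nuclear enzyme complex that writes N6-methyladenosine on RNA. The Cre driver, the strain and the number of embryos behind a library are not stated. Input is RNA of a cytoplasmic lysate, and polysome is RNA of the sucrose gradient fractions in which messages carrying several cytosolic ribosomes collect.

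Mitochondrial DNA is transcribed inside the organelle from both strands into long precursors. The tRNAs that lie between most of the rRNA and protein genes are cut out, which frees the other RNAs. The protein RNAs are translated by the mitochondrion's own ribosomes, whose rRNAs are mt-Rnr1 (12S) and mt-Rnr2 (16S), and not by the ribosomes of the cytosol. All 13 proteins are membrane subunits of oxidative phosphorylation, built together with subunits that nuclear genes encode and cytosolic ribosomes make.

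The genes sit almost end to end on the deposited coordinates, which the submitters' notes give as build mm10. The coding strand was plus for 12 protein genes, both rRNAs and 14 tRNAs, and minus for mt-Nd6 and 8 tRNAs. mt-Atp8 and mt-Atp6 overlap by 43 bases, mt-Nd5 and mt-Nd6 by 14, and mt-Nd4l and mt-Nd4 by 7. Whether counting used strand is not stated, so reads of mt-Nd6, and of the minus-strand tRNAs, cannot be told apart from reads of RNA copied from the other strand at the same place. Each tRNA is listed as a gene of its own. Whether its reads come from the cut tRNA or from a longer RNA was not tested. Of the tRNAs, 4 whose polysome values differ are shown from the GENCODE M21 transcripts (build mm10), with the anticodon in capitals. They were picked after their values were seen. mt-Tl1 and mt-Tl2 both carry leucine: mt-Tl1 (MT:2676-2750, plus strand) lies between mt-Rnr2 and mt-Nd1, and mt-Tl2 (MT:11671-11741, plus strand) directly before mt-Nd5. mt-Te (MT:14071-14139, minus strand) carries glutamate and lies directly beside mt-Nd6, and mt-Tp (MT:15356-15422, minus strand) carries proline and is the last gene of the numbering.
mt-Tl1: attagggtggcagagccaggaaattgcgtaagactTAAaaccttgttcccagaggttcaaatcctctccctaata
mt-Tl2: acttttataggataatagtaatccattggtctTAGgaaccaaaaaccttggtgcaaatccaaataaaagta
mt-Te: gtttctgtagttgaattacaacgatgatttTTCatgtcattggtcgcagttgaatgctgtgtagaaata
mt-Tp: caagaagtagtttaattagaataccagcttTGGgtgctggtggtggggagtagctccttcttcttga

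Parts of the mitochondrial genome also stand in the nuclear genome, and this sets how several members can be read. The first 120 bases of mt-Co2 (MT:7013-7696, plus strand) are shown with the same stretch of its annotated nuclear copies Gm28661 (chr1:24614885-24615565, minus strand) and Gm13341 (chr2:22587291-22587962, minus strand), all from GENCODE M21. Capitals mark the 2 bases of Gm13341 that differ from mt-Co2 in this stretch, while Gm28661 has none.
mt-Co2: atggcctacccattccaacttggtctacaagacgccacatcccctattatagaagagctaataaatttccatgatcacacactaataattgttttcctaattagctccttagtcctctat
Gm28661: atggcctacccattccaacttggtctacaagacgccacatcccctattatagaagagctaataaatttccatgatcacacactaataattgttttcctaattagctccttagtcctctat
Gm13341: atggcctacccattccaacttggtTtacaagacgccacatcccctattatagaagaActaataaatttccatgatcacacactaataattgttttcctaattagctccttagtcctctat

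Each library held 10349912 to 30068823 reads assigned to genes. Mettl14, the floxed gene (chromosome 3), had an FPKM (fragments scaled to gene length and library depth) of 2.60, 3.32 and 1.26 in cKO input against 4.09, 4.03 and 4.04 in cHet input. On polysomes it had 2.73, 2.81 and 3.29 in cKO against 2.83, 3.07 and 3.02 in cHet, and neither difference passed the test. All 14 markers of limb bud mesenchyme (among them Prrx1, Msx1 and Tbx5) were present in every library. A pair of libraries stood apart over all genes: cKO input replicate 3 scored −63.0 on the second principal component (17.1% of the variance), where the other libraries lay between −23.0 and 22.5, and cKO polysome replicate 1 scored 3.97 on the first (51.9%), where the other polysome libraries scored at least 35.5. Replicates are called biological by the labels, and each library counts as 1 sample.

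Mitochondrial RNAs made up a far smaller share of the reads on polysomes than in input, in both genotypes. All 37 genes together took 0.344%, 1.09% and 0.560% of the reads in cKO polysome replicates 1 to 3, against 4.85%, 3.27% and 2.30% in cKO input. In cHet they took 0.502%, 1.13% and 0.602% on polysomes, against 2.87%, 3.04% and 2.69% in input. Every polysome library lay below every input library. Protein genes supplied 99.5% to 99.7% of the mitochondrial reads on polysomes and 95.1% to 95.9% in input. These are shares of the bulk RNA of each library and give no absolute amounts. Between the genotypes, fewer mitochondria or cells carrying an RNA and less of it per cell cannot be told apart.

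The proportions of the classes differed between the fractions. There were 4.08, 2.36 and 3.64 rRNA reads per 1000 protein gene reads in cKO polysome libraries, against 42.2, 41.7 and 48.4 in cKO input. In cHet the ratios were 2.70, 2.25 and 3.70 on polysomes, against 39.8, 44.2 and 44.0 in input. tRNA reads per 1000 protein gene reads were 0.906 to 1.35 on cKO polysomes against 2.25 to 3.08 in cKO input, and 0.971 to 1.10 on cHet polysomes against 2.56 to 2.72 in cHet input. The fraction ranges of neither ratio overlapped in either genotype, and the rRNA share separated by more than the tRNA share did.

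**Figure D1:**
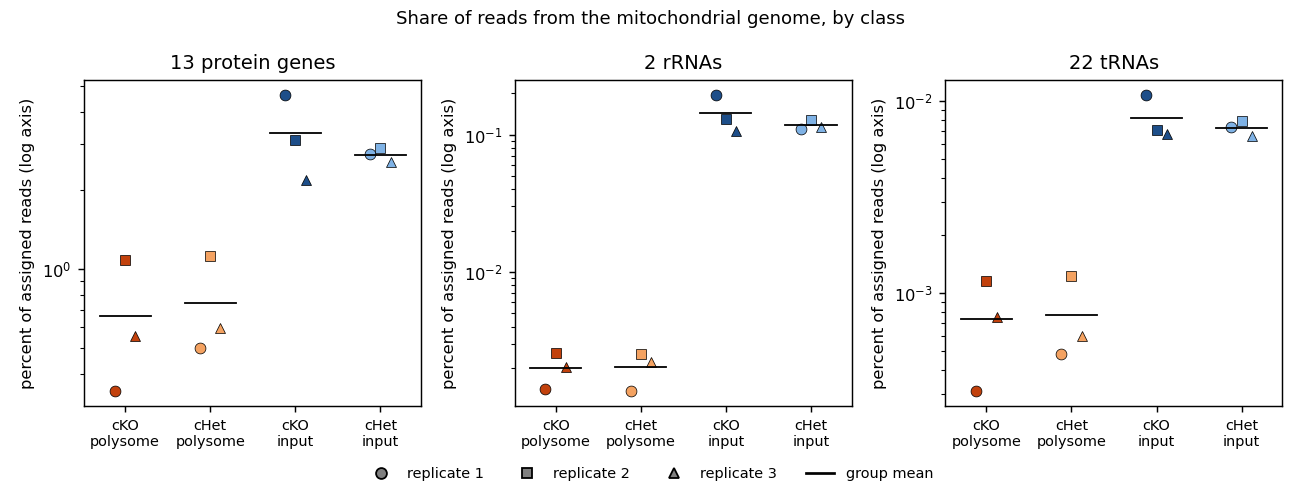
Percent of assigned reads (log axis) from mitochondrial protein genes, rRNAs and tRNAs in each of the 12 libraries, with symbols for replicates and lines for group means. Polysome libraries lie below input libraries in every panel, with the widest gap for rRNAs, and replicate 2 is the highest polysome library of both genotypes.

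Tested gene by gene, with limma on log2(FPKM + 0.1) and Benjamini-Hochberg adjustment over 13610 genes, 24 mitochondrial genes were lower on polysomes than in input in cKO and 23 in cHet, and none was higher. By class these were 12 of 13 protein genes in each genotype, both rRNAs in each, and 10 of 22 tRNAs in cKO and 9 in cHet. Only 16 of the 22 tRNAs reached the level needed for a test (an FPKM of 1 in at least 3 libraries). Among the tRNAs called, mt-Ti, mt-Tm and mt-Ta had no polysome read in either genotype, so their calls rest on the pseudocount. mt-Atp8, mt-Tl1 and mt-Tq stayed under an FPKM of 1 in every polysome library and were tested through input alone, which favours a lower call. In cHet, mt-Atp8 and mt-Tl1 had no polysome read either. Over all genes tested, 32.5% were called in cKO, 15.6% as lower and 16.9% as higher, and 53.2% in cHet, 25.9% as lower and 27.3% as higher. The median log2 difference of the 13 protein genes was −2.97 in cKO and −3.35 in cHet, against 0.06 and 0.02 over all genes tested in cKO and cHet. The middle gene was mt-Cytb in cKO and mt-Nd2 in cHet, so these medians do not order the genotypes. mt-Cytb stood at −2.53 in cHet and mt-Nd2 at −3.75 in cKO. Polysome libraries lay wholly below input libraries for 11 protein genes, both rRNAs and 10 tRNAs in cKO, and for 13, both and 9 in cHet, and wholly above for none. These tRNAs are not the same as those called. The 10 in cKO include mt-Tt, which was not tested, and lack mt-Ta, which was called. The 9 in cHet include mt-Te, which was not called, and lack mt-Tm, which was called. Over all genes tested, polysome libraries lay wholly below for 16.5% in cKO and 37.2% in cHet, and wholly above for 18.5% in cKO and 38.1% in cHet. A gene without a polysome read enters the medians through the pseudocount. The bound of mt-Atp8 in cHet from a floor of 3 reads, −3.73, lies below the cHet median of −3.35. Using it could therefore not move that median. With a pseudocount of 1 the cHet median was −2.53.

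The protein genes of complex I, the NADH dehydrogenase that passes electrons to ubiquinone, spanned fitted log2 differences of −5.39 to −1.03 in cKO and −5.19 to −0.79 in cHet. mt-Nd1 had an FPKM of 88.4, 171 and 140.3 on cKO polysomes against 8261, 5140.2 and 3674 in cKO input, and 85.4, 187 and 91.2 on cHet polysomes against 4119, 4477 and 3877 in cHet input. It was lower on polysomes by a log2 of −5.39 in cKO (SE 0.34, limma adjusted p = 3.94e-06) and −5.19 in cHet (SE 0.34, adjusted p = 5.19e-06). All polysome values of mt-Nd1 lay more than an order of magnitude below all of its input values. mt-Nd2 was lower by −3.75 and −3.35 in cKO and cHet, mt-Nd3 by −2.92 and −3.64, mt-Nd4l by −2.83 and −2.64 and mt-Nd4 by −2.69 and −2.17, with limma adjusted p of at most 0.00246 in each case.

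mt-Nd5, the largest complex I subunit of this genome, stood at the other end. Its FPKM was 386, 1175 and 619.8 on cKO polysomes against 2196, 1494 and 729.6 in cKO input, and the ranges overlapped, since cKO polysome replicate 2 lay above cKO input replicate 3. On cHet polysomes it was 645, 1313 and 740.1 against 1460.3, 1532 and 1443 in cHet input, with no overlap. The log2 differences of −1.03 in cKO (SE 0.43, limma adjusted p = 0.0838) and −0.79 in cHet (SE 0.43, adjusted p = 0.139) did not pass, and mt-Nd5 was the only protein gene not called in either genotype. Without the pair of libraries that stood apart it passed the limma test in both, at −1.09 in cKO (adjusted p = 0.0213) and −0.79 in cHet (adjusted p = 0.0290). Both libraries left out are cKO, so the cHet estimate was unchanged and only its SE, shared over all groups, fell from 0.43 to 0.29.

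mt-Nd6, whose coding strand is minus, followed its neighbour mt-Nd5 closely. Its FPKM was 362, 1128 and 685 on cKO polysomes against 2524, 1678 and 878 in cKO input, and 600.2, 1248 and 743 on cHet polysomes against 1717, 1816 and 1672 in cHet input. The ratio of mt-Nd6 to mt-Nd5 FPKM was 0.937, 0.960 and 1.10 on cKO polysomes against 1.15, 1.12 and 1.20 in cKO input, and 0.930 to 1.00 on cHet polysomes against 1.16 to 1.18 in cHet input. mt-Nd6 passed narrowly, at −1.24 in cKO (SE 0.42, limma adjusted p = 0.0411) and −1.08 in cHet (SE 0.42, adjusted p = 0.0490). With the lysate as a replicate block in limma it did not pass (adjusted p = 0.0613 in cKO and 0.0677 in cHet).

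mt-Cytb is the mitochondrially encoded subunit of complex III, which passes electrons on to cytochrome c. It had an FPKM of 377, 1104 and 642 on cKO polysomes against 7484.5, 4956 and 3455 in cKO input, and 520.2, 1215 and 694 on cHet polysomes against 4269, 4682 and 4213 in cHet input. The groups did not overlap, and the log2 differences were −2.97 in cKO (SE 0.39, limma adjusted p = 0.000497) and −2.53 in cHet (SE 0.39, adjusted p = 0.000369).

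The cytochrome c oxidase (complex IV) genes diverged widely from each other, but the levels of mt-Co2 and mt-Co3 are uncertain, since nearly all their sequence also stands in nuclear copies. mt-Co1, its catalytic core subunit, had the highest mean level per length of the protein genes in all 4 groups, with an FPKM of 987, 3239 and 1659.9 on cKO polysomes against 10486.5, 6959 and 5548 in cKO input, and 1402, 3295 and 1769 on cHet polysomes against 6252, 6497 and 6012 in cHet input. Apart from those of mt-Nd5 and mt-Nd6 its fitted difference was the smallest of the protein genes, at −2.08 in cKO (SE 0.40, limma adjusted p = 0.00292) and −1.63 in cHet (SE 0.40, adjusted p = 0.00480). It supplied 45.9% to 48.7% of the mitochondrial protein gene reads on cKO polysomes against 34.6% to 38.5% in cKO input, and 44.7% to 47.0% against 35.8% to 36.5% in cHet. mt-Co2 (2.21 ± 1.31 FPKM on cHet polysomes and 213 ± 90.5 in cHet input, SD, n = 3 each) was lower by −6.48 in cKO and −6.57 in cHet. For mt-Co3 (2.38 ± 1.43 on cHet polysomes and 119 ± 27.8 in cHet input) the differences were −5.71 and −5.70, with limma adjusted p of at most 8.25e-05 for both genes.

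Of the ATP synthase (complex V) genes, mt-Atp6 had an FPKM of 1.17, 2.64 and 2.20 on cKO polysomes against 974, 341 and 111 in cKO input, and 0.387, 2.87 and 1.04 on cHet polysomes against 177, 62.3 and 138 in cHet input. It was lower by −7.38 in cKO (SE 0.75, limma adjusted p = 0.000153) and −6.61 in cHet (SE 0.75, adjusted p = 0.000108), and both input groups spread widely. mt-Atp8 was barely detected anywhere, with 0, 0 and 2 reads on cKO polysomes against 15, 20 and 11 in cKO input. In cHet it had no read in any polysome library against 30, 13 and 13 in input, which is at least 13.3-fold lower relative to depth if 3 reads over the polysome group are taken as the floor.

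Both rRNAs fell on polysomes in each genotype. mt-Rnr1 had an FPKM of 6.78, 13.9 and 11.2 on cKO polysomes against 1009, 664 and 623 in cKO input, and 8.24, 13.5 and 13.7 on cHet polysomes against 544, 624 and 574 in cHet input. mt-Rnr2 had 4.37, 6.95 and 6.08 on cKO polysomes against 643, 398 and 305 in cKO input, and 3.31, 7.23 and 5.59 on cHet polysomes against 337, 407 and 366 in cHet input. In cKO the log2 differences were −6.18 for mt-Rnr1 (SE 0.28, limma adjusted p = 1.79e-07) and −6.20 for mt-Rnr2 (SE 0.30, adjusted p = 3.56e-07). In cHet they were −5.64 and −6.14 (limma adjusted p = 4.00e-07 for both). The rRNAs of the organelle's ribosome were thus at 0.672% to 2.39% of their input level on polysomes, lysate by lysate.

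**Figure D2:**
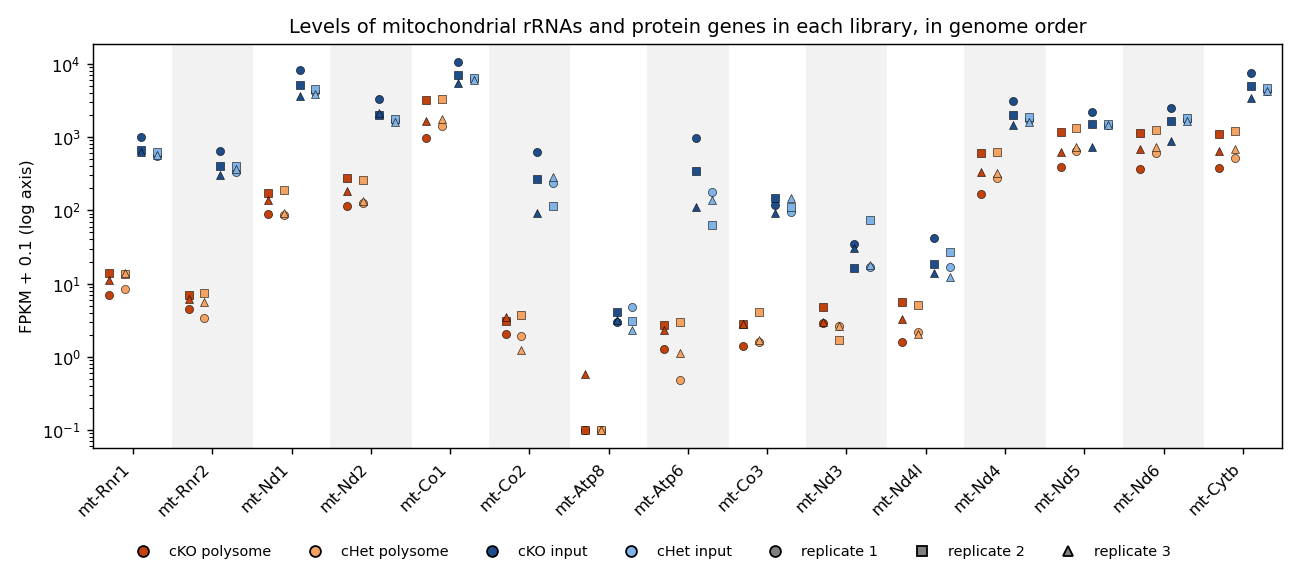
FPKM + 0.1 (log axis) of mitochondrial rRNAs and protein genes in each of the 12 libraries, in genome order. Polysome values are lower than input values for rRNAs and most protein genes, while the values of mt-Nd5 and mt-Nd6 in the fractions lie close together. Protein genes from mt-Co2 to mt-Nd4l have lower means than the other protein genes in every group.

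Taken lysate by lysate, the 16 members with at least 100 reads in every input library ran from a median of 0.674% of the input level for mt-Tc to 65.0% for mt-Nd5. mt-Nd6 (55.8%), mt-Co1 (29.7%), mt-Nd4 (21.7%) and mt-Cytb (17.5%) followed mt-Nd5, then mt-Nd3 (11.7%) and mt-Nd2 (8.51%). mt-Nd1, both rRNAs, mt-Co2, mt-Atp6, mt-Co3 and the tRNAs mt-Tp, mt-Tn and mt-Tc had medians of at most 2.84%. The cKO lysate of replicate 1 gave the lowest value of the 6 for 12 of these 16 members, and cHet replicate 2 the highest for 9. For mt-Nd5 the values were 17.6%, 78.6% and 85.0% in cKO and 44.2%, 85.7% and 51.3% in cHet. mt-Nd1 ran at 1.07%, 3.32% and 3.82% in cKO and 2.07%, 4.17% and 2.35% in cHet.

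**Figure D3:**
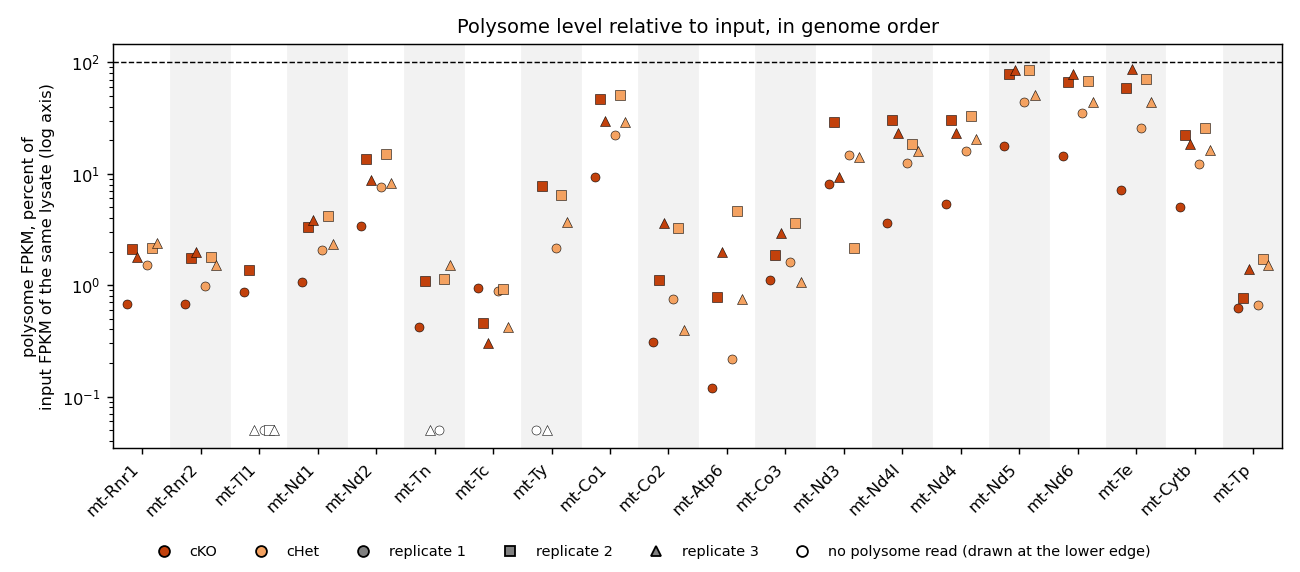
Polysome FPKM as a percent of the input FPKM of the same lysate (log axis), in genome order, for rRNAs, protein genes other than mt-Atp8 and the 6 tRNAs with at least 10 reads in every input library. The dashed line marks 100%, and mt-Nd5, mt-Nd6 and mt-Te lie nearest to it.

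The order of levels per length changed with the fraction. mt-Co1 led all 4 groups. In cHet input it averaged 6254 ± 242 FPKM and was followed by mt-Cytb (4388 ± 256) and mt-Nd1 (4158 ± 302), whose values overlapped each other. mt-Nd6, mt-Nd4 and mt-Nd2, at 1735 ± 73.3, 1725 ± 132 and 1673 ± 65.1, overlapped in turn, and mt-Nd5 came next at 1478 ± 47.4 (SD, n = 3 each). On cHet polysomes mt-Nd5 (899 ± 361), mt-Nd6 (864 ± 340) and mt-Cytb (810 ± 361) followed mt-Co1 (2156 ± 1004), with overlapping values, and mt-Nd1 was at 121 ± 56.8. The FPKM ratio of mt-Nd1 to mt-Nd5 was 0.145 to 0.229 on cKO polysomes against 3.44 to 5.04 in cKO input, and 0.123 to 0.142 on cHet polysomes against 2.69 to 2.92 in cHet input.

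The tRNAs were thinly covered. mt-Tf and mt-Td had no read in any library, 15 of the 22 had fewer than 100 reads over all 12, and only mt-Tp, mt-Tc, mt-Te and mt-Tn had at least 1000. mt-Tp had 5, 5 and 10 reads on cKO polysomes against 922, 610 and 625 in cKO input, and 4, 5 and 8 on cHet polysomes against 829, 576 and 625 in cHet input. It was lower by a log2 of −6.80 in cKO (SE 0.37, limma adjusted p = 8.15e-07) and −6.34 in cHet (SE 0.37, adjusted p = 1.86e-06). mt-Tc, the cysteine tRNA, had 5, 2 and 1 reads on cKO polysomes against 611, 408 and 292 in cKO input, a difference of −7.52 (SE 0.42, adjusted p = 1.14e-06), and was lower by −7.09 in cHet (SE 0.42, adjusted p = 2.29e-06). Polysome and input libraries did not overlap for either tRNA. mt-Ti, mt-Tm, mt-Tw and mt-Ta, the isoleucine, methionine, tryptophan and alanine tRNAs, were called lower in both genotypes on few reads. They had 7 to 37 input reads per genotype and at most 3 on polysomes. mt-Ti, mt-Tm and mt-Ta had no polysome read and reached the level for a test through input alone, so they could only be lower. With 3 polysome reads as the floor they were at least 7.22-, 5.25- and 2.96-fold lower relative to depth in cKO. In cHet these bounds were 2.84-, 2.60- and 1.66-fold. mt-Tq, the glutamine tRNA, was called in cKO (−3.66, SE 0.96, limma adjusted p = 0.0134) and missed the threshold in cHet (−2.19, SE 0.96, adjusted p = 0.0719).

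mt-Tl1, mt-Tn (asparagine) and mt-Ty (tyrosine) were also called lower in both genotypes. mt-Tl1 had 1, 1 and 0 reads on cKO polysomes against 132, 68 and 11 in cKO input, and none on cHet polysomes against 71, 70 and 65 in cHet input, at least 48.8-fold lower relative to depth in cHet by the same floor. mt-Tl2, the other leucine tRNA, did not follow it: it had 9, 42 and 25 reads on cKO polysomes against 30, 8 and 18 in cKO input, and 13, 14 and 14 against 15, 13 and 12 in cHet. Its log2 differences were 0.34 in cKO (SE 0.54, limma adjusted p = 0.664) and 0.60 in cHet (SE 0.54, adjusted p = 0.368). Its neighbours mt-Th and mt-Ts2, which lie with it between mt-Nd4 and mt-Nd5, were not called either. Nor were mt-Tg (−1.46 in cKO and −1.34 in cHet) and mt-Tr (−1.52 in cKO and 0.44 in cHet), which flank mt-Nd3. mt-Th and mt-Ts2 had 73 reads each over all libraries, mt-Tg 79 and mt-Tr 49. The SEs were 1.37 for mt-Th, 0.60 for mt-Ts2, 0.76 for mt-Tg and 1.02 for mt-Tr, so the absence of a call says little.

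mt-Te had 35, 191 and 90 reads on cKO polysomes against 565, 303 and 91 in cKO input, and 62, 95 and 100 on cHet polysomes against 334, 267 and 270 in cHet input. Its differences of −1.60 in cKO (SE 0.60, limma adjusted p = 0.0582) and −1.22 in cHet (SE 0.60, adjusted p = 0.103) did not pass. It made up 52.2%, 66.8% and 59.6% of all mitochondrial tRNA reads on cKO polysomes against 20.1%, 18.3% and 7.55% in cKO input, and 57.9%, 74.2% and 69.9% on cHet polysomes against 15.3%, 16.4% and 14.4% in cHet input. mt-Tp, mt-Tc and mt-Tn together made up 3.15% to 16.4% on cKO polysomes against 64.2% to 85.4% in cKO input, and 6.25% to 9.09% on cHet polysomes against 72.7% to 76.2% in cHet input. The smallest total behind these shares was 67 reads, where the 52.2% of mt-Te has an exact 95% binomial interval of 39.7% to 64.6% that covers counting error only. These sets of tRNAs were formed after their values were seen, and mt-Te, mt-Tl2, mt-Th, mt-Ts2, mt-Tg, mt-Tr, mt-Tq, mt-Tm, mt-Tw and mt-Ta were likewise singled out after the fact.

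Several protein genes share nearly all their sequence with nuclear copies, and these had lower mean levels than the other protein genes apart from mt-Atp8. An annotated block of 7 unprocessed pseudogenes on the minus strand of chromosome 1 (chr1:24611535-24616197, 4663 bases) holds mt-Co1 to mt-Nd4 in part. Over the aligned stretch Gm28437 (of mt-Co3), Gm28661 (of mt-Co2), Gm10925 (of mt-Atp6), Gm28438 (of mt-Nd3), Gm10222 (of mt-Nd4l) and Gm28439 (of mt-Nd4) were 100% identical to their mitochondrial gene, and Gm29216 matched mt-Co1 in 482 of 483 bases. Of all 50-base windows, 100% in mt-Co2, 99.9% in mt-Co3, 99.5% in mt-Atp6, 98.8% in mt-Nd4l and 98.0% in mt-Nd3 also occur in an annotated nuclear transcript. In mt-Nd4 it was 62.2%, in mt-Co1 51.1%, in mt-Nd2 8.19%, in mt-Nd5 7.61% and in mt-Rnr2 1.04%. No such window was found in mt-Nd1, mt-Nd6, mt-Cytb, mt-Atp8 and mt-Rnr1. The 5 genes with at least 95% averaged 24.6 to 475 FPKM in cKO input and 18.6 to 213 in cHet input. The 5 with under 10%, mt-Atp8 left out, averaged 1473 to 5692 in cKO input and 1478 to 4388 in cHet input. mt-Atp8, at 3.32 ± 0.632 in cKO input and 3.31 ± 1.27 in cHet input (SD, n = 3 each), was low with no shared window found. Only annotated transcripts were searched, and the unannotated stretch of the chromosome 1 block between Gm28661 and Gm10925 stands where mt-Atp8 would lie, so whether mt-Atp8 has a copy there was not tested. How the authors treated reads with several equal matches is not stated, and its part in these levels was not tested.

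**Figure D4:**
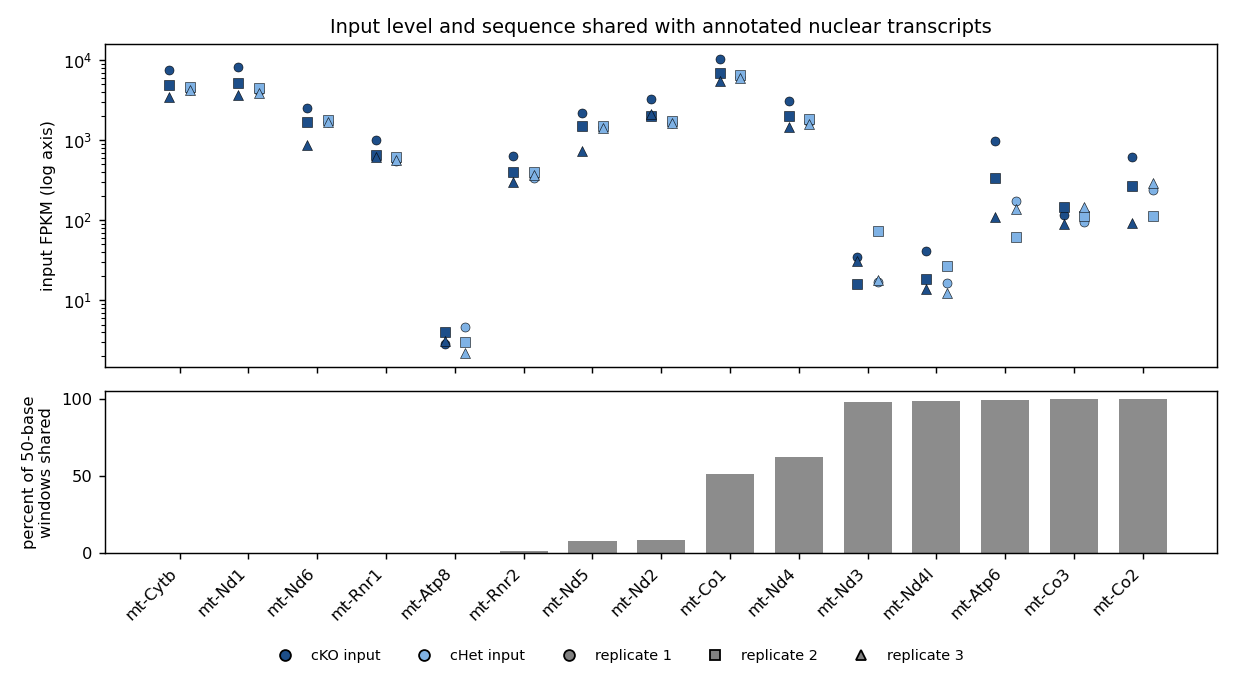
Input FPKM in each library (upper panel, log axis) and percent of the gene's 50-base windows that also occur in an annotated nuclear transcript (lower panel), with rRNAs and protein genes ordered by that percent. The 5 genes at the right, with 98.0% to 100%, have lower group means than the other protein genes apart from mt-Atp8, although mt-Atp6 in cKO input replicate 1 reaches 974.

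The authors' table assigned reads to the nuclear copies too, and the split between a gene and its copy differed between libraries. Gm28437 had 7299, 1335 and 6141 reads in cKO input replicates 1 to 3, where mt-Co3 had 2385, 2785 and 1255, and 3534, 2894 and 2918 in cHet input, where mt-Co3 had 2322, 1867 and 3350. There were thus 47.9 to 489 copy reads per 100 mt-Co3 reads in the 6 input libraries. The split ran from 16.2 to 117 per 100 for mt-Atp6 and from 25.4 to 95.4 for mt-Co2 in input, but only from 0.618 to 0.696 for mt-Nd4 and from 0.176 to 0.695 for mt-Co1. The levels of mt-Co2, mt-Atp6, mt-Co3, mt-Nd3 and mt-Nd4l are therefore uncertain per gene.

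The copies that could be tested were lower on polysomes in both genotypes too. Gm28437, the copy with most reads, had an FPKM of 1.19, 1.37 and 1.08 on cKO polysomes against 361, 70.2 and 446 in cKO input, and was lower by −7.42 in cKO (SE 0.59, limma adjusted p = 2.53e-05) and −6.97 in cHet (SE 0.59, adjusted p = 4.13e-05). Gm28661, Gm10925 and Gm29216 were lower by −6.01, −5.74 and −3.22 in cKO and −5.34, −5.19 and −2.43 in cHet, with limma adjusted p of at most 0.0154. With copy reads added to their genes, a setting chosen after the data were seen, mt-Co3 was lower by −6.78 in cKO and −6.33 in cHet, mt-Atp6 by −6.87 and −6.00, and mt-Co2 by −6.41 and −6.16. Every one of the 7 genes stayed called in both genotypes.

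The nuclear genes of oxidative phosphorylation moved the other way. Of 86 such genes, 84 were tested, and 59 were higher and 4 lower on cKO polysomes than in cKO input, with a median log2 difference of 0.77, while 65 were higher and 8 lower in cHet, with a median of 1.04. Over all genes tested, 16.9% were called higher and 15.6% lower in cKO, and 27.3% higher and 25.9% lower in cHet. Ndufb3, a complex I subunit, had an FPKM of 109, 138 and 148 on cKO polysomes against 52.3, 46.6 and 41.7 in cKO input, and 149, 159 and 141 on cHet polysomes against 51.2, 54.5 and 52.8 in cHet input. It was higher by 1.48 in cKO (SE 0.14, limma adjusted p = 9.37e-05) and 1.50 in cHet (SE 0.14, adjusted p = 7.71e-05). Cox7b of complex IV was higher by 1.49 in cKO (SE 0.17, adjusted p = 0.000292), and Cox6b1 of the same complex by 1.54 and Atp5k of ATP synthase by 1.35 in cHet, with limma adjusted p of 8.69e-05 and 9.72e-05.

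Nuclear genes that act on mitochondrial DNA and RNA were called in both directions. Their counts stand against 16.9% of all genes tested called higher and 15.6% lower in cKO, and 27.3% higher and 25.9% lower in cHet, and those of RNA processing and translation factors in cHet lie near these shares. Among 20 tested genes of mitochondrial transcription and DNA maintenance, 10 were higher and 2 lower on polysomes in cKO, and 10 higher and 3 lower in cHet. Polrmt, the mitochondrial RNA polymerase, was lower by −1.02 in cKO (SE 0.22, limma adjusted p = 0.00467) and −1.27 in cHet (SE 0.22, adjusted p = 0.000594), and Ssbp1, which coats single-stranded mitochondrial DNA, was higher by 0.86 and 0.78 (adjusted p = 0.00212 and 0.00145). Of 22 tested genes of RNA processing, stability and polyadenylation, 1 was higher and 2 were lower in cKO, and 6 higher and 6 lower in cHet. Elac2, which cuts the 3′ end of mitochondrial tRNAs, was lower by −0.73 in cKO (SE 0.19, limma adjusted p = 0.0145) and −1.21 in cHet (SE 0.19, adjusted p = 0.000473). Slirp, an RNA-binding partner of Lrpprc, was the gene called higher in cKO, at 0.89 (SE 0.27, limma adjusted p = 0.0261). Its level was low, with an FPKM of 0.929, 1.37 and 1.78 on cKO polysomes against 0.587, 0.756 and 0.660 in cKO input. It lay below 1 in every input library and was tested only through polysome libraries, which favours a higher call. Of 26 RNA modification genes, 3 were higher and 0 lower in cKO, and 5 higher and 2 lower in cHet, among them Trmt61b, a tRNA and rRNA adenine methyltransferase, at 1.15 and 1.28 (limma adjusted p = 0.00222 and 0.000463). Of 15 translation factor genes, 3 were higher and 5 lower in each genotype, with Gfm1, an elongation factor, lower by −0.72 and −1.26 (limma adjusted p = 0.0107 and 0.000264).

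Some noncoding RNAs of the nucleus were lower on polysomes too. Malat1 was lower by −2.30 in cKO (SE 0.29, limma adjusted p = 0.000444) and −1.33 in cHet (SE 0.29, adjusted p = 0.00253), and Rn7sk, a small nuclear RNA, by −3.80 in cKO (SE 0.39, adjusted p = 0.000177) and −5.03 in cHet (SE 0.39, adjusted p = 2.48e-05). Of 4 nuclear-retained RNAs tested, Malat1 and Rian were called lower in each genotype and none higher, and Meg3 and Xist did not pass, beside 15.6% of all genes tested called lower in cKO and 25.9% in cHet. Terc, the RNA of telomerase and the only other RNA tested of the list that holds Rn7sk, was lower in cKO (−0.88, SE 0.28, limma adjusted p = 0.0318) and stood at 0.31 in cHet (SE 0.28, adjusted p = 0.364).

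Between the genotypes, no mitochondrial gene passed the test in either fraction. In input, 0 of the 31 mitochondrial genes tested were called by limma, beside 0% of all 12977 genes, with 1943 genes at an unadjusted p under 0.05 and 1 mitochondrial gene, mt-Nd2, among them. mt-Nd2 had an FPKM of 3323, 2016 and 2106 in cKO input against 1642, 1748 and 1630.4 in cHet input, so its groups did not overlap, as in 16.9% of all genes tested with cKO above. The log2 difference was 0.53 (SE 0.20, limma adjusted p = 0.290). The median over the 13 protein genes was 0.24 in input against −0.01 over all genes, with 9 above 0 and 4 below, while the rRNAs stood at 0.37 for mt-Rnr1 (SE 0.19, limma adjusted p = 0.421) and 0.21 for mt-Rnr2 (SE 0.26, adjusted p = 0.692). The cKO libraries were uneven: replicate 1 was the highest of its group for 11 of the 13 protein genes and replicate 3 the lowest for 10. Leaving out 1 library at a time moved the median between −0.01, without cKO input replicate 1, and 0.47, without cKO input replicate 3. Of the tRNAs with most reads, mt-Tp stood at 0.34 (SE 0.17, limma adjusted p = 0.403), mt-Te at 0.05, mt-Tn at −0.01 and mt-Tc at −0.09.

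The largest fitted difference in input was that of mt-Atp6, at 1.53 (SE 0.77, limma adjusted p = 0.399), where 974 FPKM in cKO replicate 1 stood far above 341 and 111 in cKO replicates 2 and 3. With the reads of its chromosome 1 copy added it was 1.25 (SE 0.63, limma adjusted p = 0.403). mt-Co3 was at −0.00 as deposited (SE 0.23, limma adjusted p = 0.995) and at 0.52 with copy reads added (SE 0.33, adjusted p = 0.486).

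On polysomes, 0 of the 25 mitochondrial genes tested were called by limma, beside 0% of 12877 genes, with 2743 genes at an unadjusted p under 0.05 and mt-Nd3 and mt-Ts2 among them. mt-Nd3 had 2.80, 4.62 and 2.87 FPKM on cKO polysomes against 2.53, 1.60 and 2.51 on cHet polysomes, a log2 difference of 0.60 (SE 0.25, limma adjusted p = 0.212). mt-Ts2, a serine tRNA, had 7, 7 and 7 reads on cKO polysomes against 4, 2 and 6 on cHet polysomes, also at 0.60 (SE 0.17, limma adjusted p = 0.138). Their groups did not overlap, as in 17.9% of all genes tested with cKO above. The median over the 12 protein genes tested was 0.06, with 6 above 0 and 6 below, against 0.02 over all genes. Leaving out 1 library at a time moved it between −0.25, without cKO polysome replicate 2, and 0.41, without cHet polysome replicate 2. The tRNAs mt-Tp, mt-Te, mt-Tc and mt-Tn stood at −0.12, −0.32, −0.52 and −0.54 on polysomes.

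The polysome to input ratio was not called different between the genotypes for any mitochondrial gene either. The limma interaction term called 0 of 31, beside 0% of 13610 genes, and 638 genes had an unadjusted p under 0.05, with no mitochondrial gene among them. Its median over the protein genes was −0.19, with 3 above 0 and 10 below, and −0.62 to 0.14 with 1 library left out. The estimates were −0.54 for mt-Rnr1 (SE 0.39, limma adjusted p = 0.790), −0.45 for mt-Co1 (SE 0.56, adjusted p = 0.829) and −0.24 for mt-Nd5 (SE 0.61, adjusted p = 0.908). These errors leave room for differences of either sign.

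**Figure D5:**
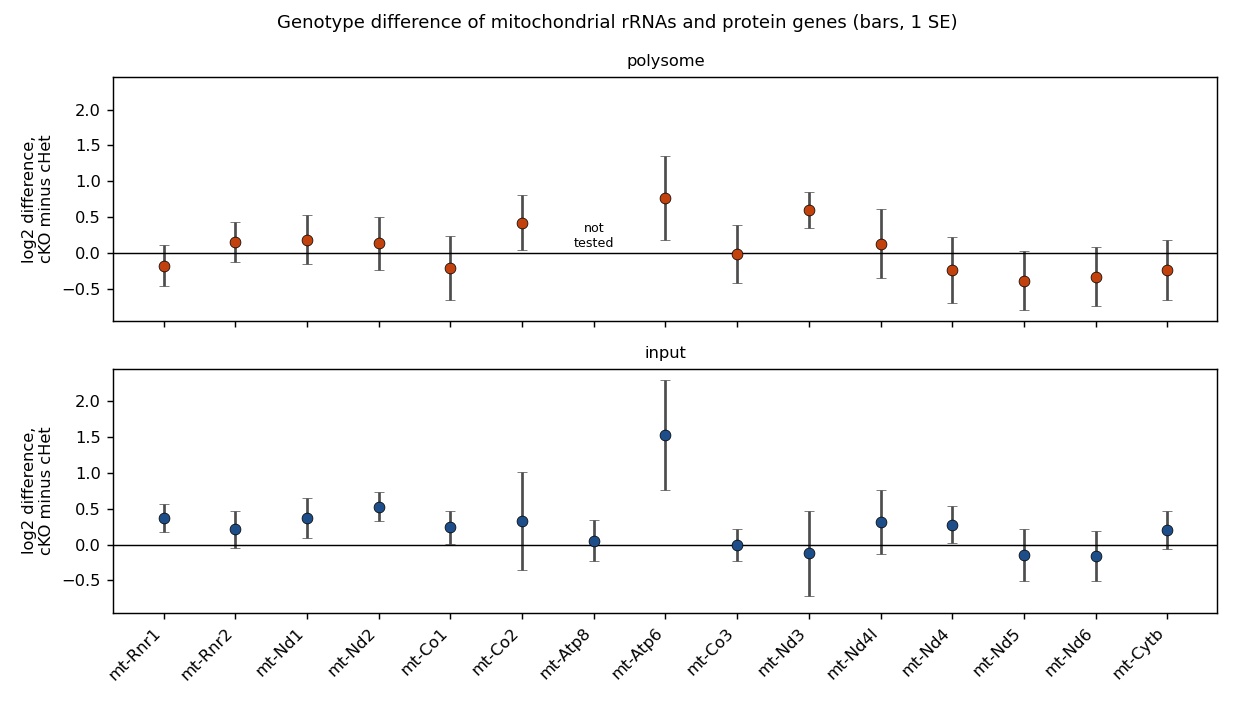
Log2 difference between cKO and cHet (cKO minus cHet, limma) of mitochondrial rRNAs and protein genes on polysomes (upper panel) and in input (lower panel), with bars of 1 SE. None passed the test, mt-Atp6 in input lies highest at 1.53, and mt-Atp8 was not tested on polysomes.

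No cell type marker passed the test between the genotypes. All 11 erythroid markers tested were below 0 in both fractions (medians −0.49 in input and −0.40 on polysomes), and all 11 macrophage markers were above 0 (0.47 in input and 0.59 on polysomes). Erythroid markers took 0.409% to 1.06% of the reads in cKO input against 0.688% to 1.70% in cHet input, with overlapping ranges, and macrophage markers 0.0113% to 0.0137% against 0.00891% to 0.00997%. No marker of either list was at 0 in any library. Of 14 limb bud mesenchyme markers, 13 were above 0 in input, and the list took 0.375% to 0.430% of the reads in cKO input against 0.282% to 0.321% in cHet input. On polysomes 12 were above 0 and 2 below, and the shares overlapped, at 0.481% to 0.592% in cKO against 0.451% to 0.493% in cHet. Of 10 epidermis markers, 8 were above 0 in input and 9 on polysomes. Muscle markers stood at 4 above and 8 below 0 in input and at 8 above and 4 below on polysomes, and endothelium markers at 4 above and 6 below in input and 8 above and 2 below on polysomes. Chondrocyte markers stood at 2 above and 5 below in input and at 5 above and 2 below on polysomes, and neuron or Schwann cell markers at 4 above and 2 below in input and 5 above and 1 below on polysomes. The part of these cell types in the mitochondrial values was not tested.

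No nuclear gene of the mitochondrial lists was called between the genotypes in either fraction. The smallest limma adjusted p in input was 0.150 for Cox7a2l, an assembly factor of respiratory supercomplexes, at a log2 difference of 0.72 (SE 0.15). On polysomes it was 0.0866 for Trmt5, a tRNA guanine methyltransferase, at 0.82 (SE 0.17), followed by 0.0870 for Twnk, the mitochondrial DNA helicase, at 0.88 (SE 0.19).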

How the data were processed

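FPKM values per gene were deposited by the authors for all 12 libraries. The submitters' processing notes name HISAT2 2.0.5, featureCounts 1.5.0-p3 and build mm10. Strand setting, rRNA depletion and poly(A) selection are not given in the sources used here. Whole reads were recovered from the FPKM steps (100% of values within 0.01 of a whole number) for shares and read counts. Tests used limma 3.58.1 (R 4.3.3) on log2(FPKM + 0.1) with trended variance, for genes at an FPKM of 1 in at least 3 libraries, with Benjamini-Hochberg adjustment over all of them and calls at an adjusted p under 0.05. Genotypes were compared within a fraction over 6 libraries, and fractions and the interaction over 12 with 4 group means. Fold changes of low genes with reads in every library are understated by the pseudocount. For a short gene without a polysome read the pseudocount lies below the level of 1 read, and the fold change can be overstated. mt-Tl1 in cHet was fitted at −8.42, against a bound of −5.61 from the floor of 3 reads.

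Same-numbered input and polysome libraries of a genotype share a lysate by the series' design (correlation of deviations 0.0525 to 0.249). Numbers were not taken to pair genotypes. Between genotypes within a fraction the correlations were −0.281 to 0.165 with the same number and −0.213 to 0.306 with another number. They do not tell libraries of the same lysate from the others, so the pairing rests on the design alone. On simulated data the test recovered 88.4% of 2-fold changes in input, 85.4% on polysomes and 88.9% between the fractions in cKO, with 13, 20 and 9 false calls among 12996, 12949 and 13387 genes. The simulated counts had the same dispersion for every gene and no library that stood apart. In the real libraries the mean log2 level of the mitochondrial protein genes had a pooled SD of 0.52 between replicates. The recovered shares therefore do not give the power for these members or for the genotype comparisons made here. Sequences came from GENCODE M21, aligned with Biopython 1.88 (Python 3.11.15). Members and gene lists were chosen with earlier results of these data known. All rRNAs and protein genes could be named, tRNAs by the 5 smallest p among those called, and list genes by the 4 smallest p per list and comparison. Alternatives covered pseudocount, filter, scaling, voom on recovered reads, blocks and left-out libraries.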

Additional observations from a re-analysis of the deposited data

How the results depend on the processing

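The number of mitochondrial genes called between polysomes and input ran from 20 to 26 in cKO and from 19 to 26 in cHet over all alternatives (21 to 25 and 20 to 24 with 1 library left out), and none was called between the genotypes or for the interaction under any of them. The median difference of the protein genes in cHet moved from −3.35 to −2.53 with a pseudocount of 1. With 1 library left out, the medians ran from −3.36 to −2.70 in cKO, −3.43 to −2.95 in cHet, −0.01 to 0.47 for the genotypes in input, −0.25 to 0.41 on polysomes and −0.62 to 0.14 for the interaction. With the lysate as a replicate block, 23 genes were called in each genotype, and pairing by replicate number called 0 between the genotypes. Of 1593 values for single rRNA and protein genes (tRNAs were followed only in the counts above), 0 were reversed among called values, 23 lost the call (all of mt-Nd6) and 4 gained it (all of mt-Nd5, among them limma adjusted p = 0.0148 without cKO input replicate 3 and 0.0308 without cKO polysome replicate 2). The counts also fell through tRNAs and through genes that a stricter filter left untested. In the genotype comparisons 11 of 15 rRNA and protein genes in input and 10 of 14 on polysomes had the other sign under some alternative, and between the fractions 0 of 15 did. Adding the reads of the chromosome 1 copies was chosen after seeing the data and changed no call. Polysome reads limit most tRNAs, since 15 of 22 had under 100 reads in all libraries together.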
